A study of Drosophila melanogaster with 4 samples.

Results

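The genes described here encode the proteins of the mitochondrial ribosome. They were chosen by name, as every gene in the count tables whose FlyBase symbol starts with mRpL (large subunit) or mRpS (small subunit), which gave 70 of 14885 genes, 46 with an mRpL and 24 with an mRpS symbol. The reference gene table lists 73 such symbols, and mRpL45, mRpS34 and mRpS5 were not matched by identifier and are not analysed here. RNA was sequenced from eye-antennal discs of *Drosophila melanogaster*, the larval epithelia that give rise to the eyes and antennae of the adult, taken from larvae of the third instar in the wandering stage. The groups are the glass mutant gl[60j], with 2 libraries that the series' design text calls technical replicates, and wild type, with 1 library each of the strains Canton S and RAL-208, which it calls biological replicates. Glass is a transcription factor on which photoreceptors depend, and a difference between gl[60j] and wild type can also stem from the background of the mutant stock. Both mutant libraries therefore stand for 1 biological sample.

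Mitochondria carry their own ribosomes, which translate the few proteins encoded by mitochondrial DNA, all of them subunits of the respiratory chain and ATP synthase. The ribosomal RNAs are made inside the organelle, whereas every protein of the particle is encoded in the nucleus, made in the cytoplasm and imported. Many of these proteins have counterparts in bacterial ribosomes, and others were added in the mitochondrial lineage.

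Gene reads per library numbered 11292175 and 27044633 for the mutant, 12118170 for Canton S and 11805345 for RAL-208. The gl transcript was at 105 and 108 CPM (reads per 1000000 gene reads) in the mutant libraries, against 299 in Canton S and 235 in RAL-208, a log2 fold change of -1.25 (SE 0.21, adjusted p 0.209 in edgeR). All 10 marker genes of the disc were tested. Their summed level, to which hth gave the most, was 2764 CPM in each mutant library, against 2533 CPM in Canton S and 2576 CPM in RAL-208. Both mutant libraries lay above both wild types for 5 of them (toy, ey, dac, hth and eya) and below for 4 (ct, Dll, so and ato), and sens overlapped. Among marker lists named for other tissues, those of fat body, brain, haemocytes and trachea were lower in total in the mutant. All 6 fat body markers were found, and their sum was 2798 and 2722 CPM in the mutant libraries, against 19789 CPM in Canton S and 10497 CPM in RAL-208. Lsp1alpha, Lsp1beta and Lsp1gamma were below both wild types in both mutant libraries. Fbp1, Fbp2 and Lsp2 lay between the wild types, and Fbp1 was at 1894 and 1840 CPM in the mutant, against 7835 CPM in Canton S and 56.8 CPM in RAL-208. The 7 brain and nerve cord markers summed to 236 and 231 CPM in the mutant, against 558 in Canton S and 625 in RAL-208. These are genes of neurons, elav among them, and photoreceptors of the disc are neurons too, so the list does not separate brain from disc. The 5 haemocyte markers summed to 352 and 324 CPM in the mutant, against 361 CPM in Canton S and 760 CPM in RAL-208. The 6 muscle markers summed to 819 and 817 CPM in the mutant, against 785 CPM in Canton S and 986 CPM in RAL-208. The 4 salivary gland markers summed to 77.8 and 81.2 CPM in the mutant, against 123 CPM in Canton S and 36.8 CPM in RAL-208. The groups overlapped in both of these sums. The trachea marker trh was at 4.69 and 4.73 CPM in the mutant, against 18.5 in Canton S and 31.6 in RAL-208. Of the flight muscle precursor markers, vg was below both wild types in both mutant libraries, and twi was above both. In the fit described below, 0 of the 6 fat body, 0 of the 7 brain and 0 of the 5 haemocyte markers had a value above 0, and no marker in the tables was at 0 in all libraries. Their part in the results below was not tested. In bulk tissue, fewer cells of a type and less RNA per cell cannot be told apart.

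Mitochondrial ribosomal protein transcripts were present at moderate levels, and most stood slightly higher in the glass mutant. Reads were found for 69 of the 70 genes in every library, from 49 to 2133 reads per gene and library, and all 69 passed the filter on low counts. Together the 70 genes summed to 1807 and 1796 CPM in the mutant libraries, against 1636 CPM in Canton S and 1651 CPM in RAL-208, a ratio of means of 1.10. The mutant libraries lay above both wild types in this sum. With edgeR's quasi-likelihood test on summed mutant libraries, the median fitted log2 fold change (mutant over wild type) was 0.20 over the 69 genes, with 61 above 0 and 8 below. Over all 9059 genes tested, the median was 0.0014, and 50.2% were above 0.

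No single gene of the family passed the test. After Benjamini-Hochberg adjustment, edgeR called 0 of the 69 genes when the mutant libraries were summed, and 0% of all 9059 genes. The adjusted p (edgeR) of the 69 genes lay between 0.262 and 0.999, while the smallest of any gene was 0.182. At an unadjusted p under 0.05, 2 of the 69 were higher, mRpL12 and mRpL16, and 0 lower, against 6.44% of all genes higher and 10.2% lower. DESeq2 called 0 of them, with 1.67% of all genes called higher and 4.27% lower. edgeR on 4 separate libraries called 5 higher and 0 lower, against a background of 8.05% higher and 11.3% lower. The share of the family called higher, 7.25%, was close to that of all genes. Those 5 were mRpL12, mRpL16, mRpL40, mRpS9 and mRpS10, and the p-values of that fit are too small, since it counts technical replicates as samples. Without Canton S its calls were 28 higher and 2 lower, against 29.5% and 29.6% of all genes. Without RAL-208 they were 24 higher and 0 lower, against 23.3% and 24.2% of all genes. With 1 wild type left out, only the technical replicates give that fit its spread. Only the spread between the wild-type strains, with 1 residual degree of freedom, stands behind the summed fit.

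A count that needs no model gave the same picture of small differences on 1 side. Both mutant libraries lay above both wild types in CPM for 35 of the 69 genes, 50.7% of them, against 26.2% of all genes tested. Both lay below for 4 genes, mRpS7, mRpS26, mRpL10 and mRpL48, or 5.80%, against 41.0% of all genes. With CPM scaled by TMM, the counts were 47 higher and 2 lower, against 34.6% and 33.5% of all genes. Leaving out 1 library raised the counts by CPM in the family and over all genes. Without the first mutant library 42 were higher and 7 lower, against 29.4% and 47.7% of all genes, and without the second 41 and 6, against 32.8% and 44.1%. Without Canton S the counts were 46 and 13, against 39.2% and 52.4%, and without RAL-208 they were 49 and 12, against 36.2% and 52.6%. The differences themselves were small. A fitted change of over 1.5-fold was found for 4 of the 69 genes, or 5.80%, against 24.3% of all genes, and the SD of the log2 fold change among them was 0.20, against 0.97 among all genes.

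**Figure D1:**
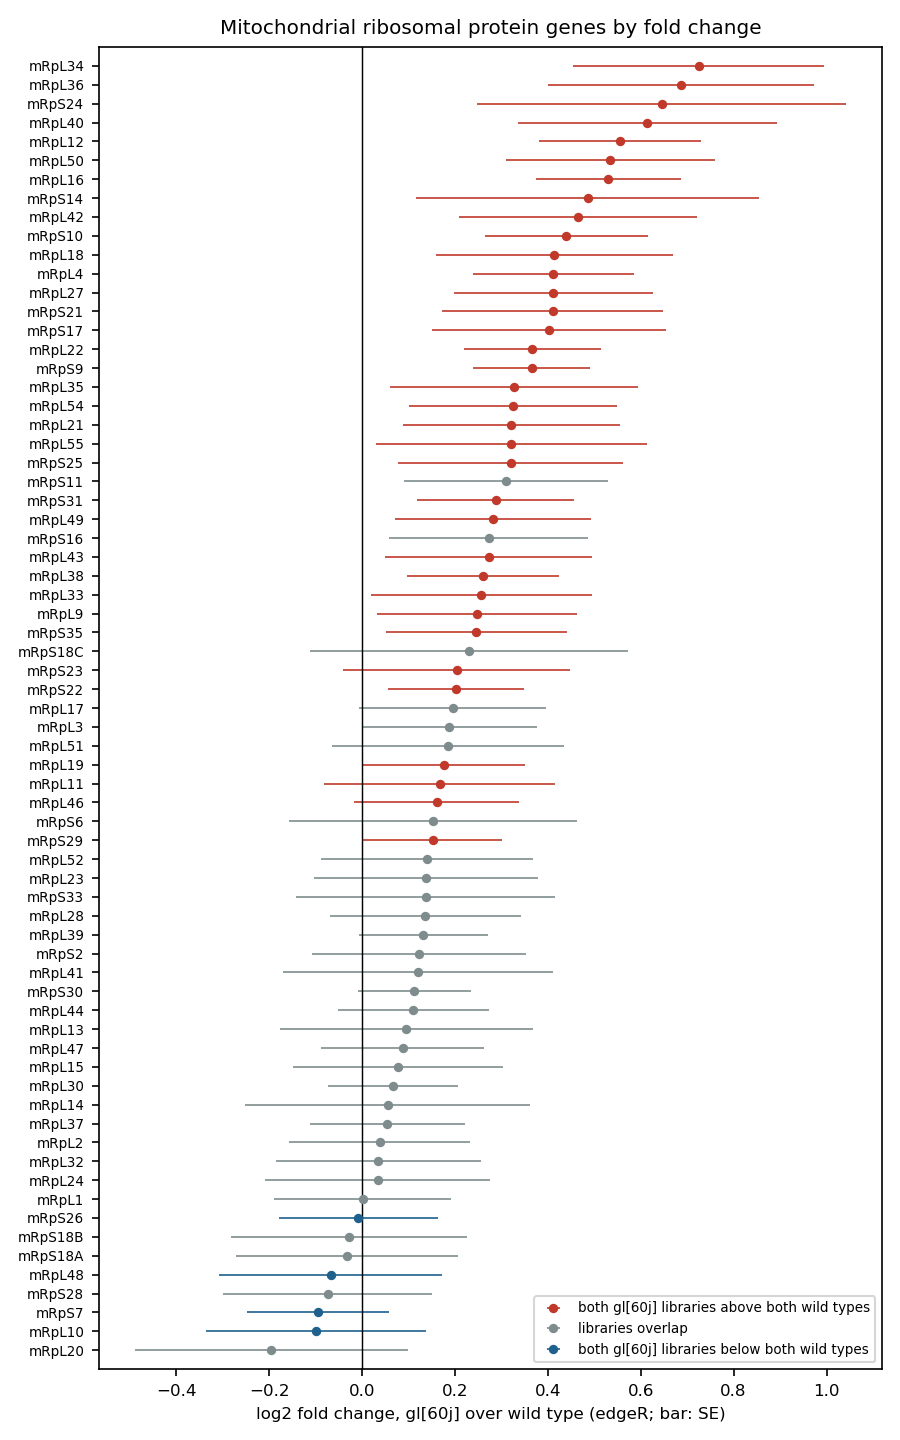
Fitted log2 fold change of each of the 69 genes, gl[60j] over wild type, from edgeR with summed mutant libraries (bars are standard errors), coloured by whether both mutant libraries lay outside the wild-type range in CPM. Values run from 0.72 for mRpL34 to -0.20 for mRpL20, with 61 above 0, and 0 genes passed the adjusted test.

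Genes of both subunits stood at the upper end of the family, and 4 of the large subunit are given first. mRpL34 (FBgn0083983), the counterpart of bacterial ribosomal protein L34, was at 12.9 and 16.01 CPM in the mutant libraries, against 9.49 CPM in Canton S and 9.74 CPM in RAL-208. The mutant libraries lay above both wild types but differed from each other more than the wild types did, and the log2 fold change was 0.72 (SE 0.27) and 0.48 without the second mutant library. mRpL36 (FBgn0042112), the counterpart of bacterial L36, was at 14.1 and 15.0 CPM in the mutant, against 10.3 CPM in Canton S and 8.98 CPM in RAL-208, a log2 fold change of 0.69 (SE 0.29). Here too the groups did not overlap. mRpL40 (FBgn0037892), which has no bacterial counterpart, was at 14.4 and 13.5 CPM in the mutant, against 9.41 CPM in Canton S and 9.49 CPM in RAL-208 (log2 fold change 0.61, SE 0.28). mRpL50 (FBgn0028648), also without a bacterial counterpart, was at 18.7 and 22.6 CPM in the mutant, against 16.01 CPM in Canton S and 15.2 CPM in RAL-208. Its log2 fold change of 0.53 (SE 0.22) was 0.31 without the second mutant library. All 4 of these genes had an adjusted p (edgeR) between 0.325 and 0.393.

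mRpL12 and mRpL16 had the smallest p-values of the family. The product of mRpL12 (FBgn0011787) belongs to the stalk of the large subunit, which receives the translation factors, and in flies the gene is known as a requirement for growth driven by Cyclin D and Cdk4. It was at 43.9 and 46.3 CPM in the mutant libraries, against 35.1 CPM in Canton S and 30.2 CPM in RAL-208. Both mutant libraries lay above both wild types, the log2 fold change was 0.56 (SE 0.17), and the edgeR p was 0.0397 unadjusted and 0.276 adjusted. mRpL10 (FBgn0031231), whose product anchors the stalk to the ribosome, stood on the other side, at 14.9 and 14.5 CPM in the mutant, against 16.2 CPM in Canton S and 16.7 CPM in RAL-208. Its log2 fold change was -0.10 (SE 0.24). The stalk genes had fitted values of opposite sign, and the difference between them was not tested. mRpL16 (FBgn0023519), a counterpart of the bacterial protein L16 that lies near the tRNA binding sites, was at 37.5 and 40.4 CPM in the mutant, against 28.3 CPM in Canton S and 29.3 CPM in RAL-208. The wild types were close together and both mutant libraries were above them, with a log2 fold change of 0.53 (SE 0.16), an unadjusted p of 0.0330 and an adjusted p of 0.262 in edgeR.

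Of the small subunit genes, mRpS24 and mRpS14 had the highest fitted values. mRpS24 (FBgn0039159), the counterpart of bacterial S3, was the least abundant of the 69 genes, at 5.84 and 6.29 CPM in the mutant libraries, against 4.04 CPM in Canton S and 4.24 CPM in RAL-208. Its log2 fold change was 0.65 (SE 0.40), and 55.3% of its exon bases are shared with exons of TBC1d7 on the opposite strand in the BDGP6 annotation. mRpS14 (FBgn0044030), named after bacterial S14, was at 16.9 and 14.3 CPM in the mutant, against 8.99 CPM in Canton S and 13.7 CPM in RAL-208. The second mutant library lay just above RAL-208, and the log2 fold change was 0.49 (SE 0.37), 0.22 without Canton S and 0.81 without RAL-208. Exons of other genes cover 35.8% of its exon bases. mRpS10, which was called only by the fit of 4 libraries, was at 34.4 and 35.7 CPM in the mutant, against 28.6 CPM in Canton S and 26.2 CPM in RAL-208. mRpS9, called by the same fit, was at 52.5 and 50.1 CPM in the mutant, against 41.6 CPM in Canton S and 41.4 CPM in RAL-208.

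**Figure D2:**
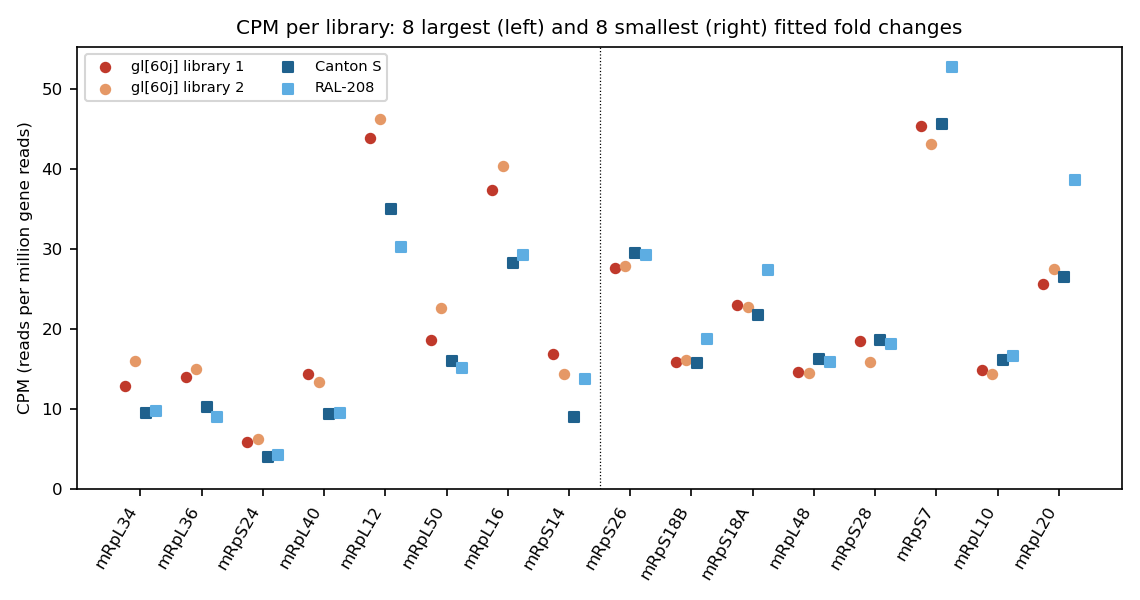
CPM in each of the 4 libraries for the genes with the 8 largest (left of the dotted line) and the 8 smallest (right) fitted fold changes, circles for gl[60j] and squares for wild type. Left of the line both mutant libraries are above both wild types for every gene, and right of it they are below both for mRpS26, mRpL48, mRpS7 and mRpL10.

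The 8 genes with a fitted value below 0 differed little between genotypes. mRpL20 (FBgn0036335), named after an early assembly protein of the bacterial large subunit, had the lowest value, -0.20 (SE 0.29). It was at 25.6 and 27.6 CPM in the mutant libraries, against 26.5 CPM in Canton S and 38.6 CPM in RAL-208. RAL-208 stood apart here, and without it the log2 fold change was 0.09. mRpS7 (FBgn0032236), the counterpart of a protein that starts assembly of the bacterial small subunit head, was at 45.4 and 43.1 CPM in the mutant, against 45.6 CPM in Canton S and 52.9 CPM in RAL-208. The first mutant library and Canton S were nearly equal. The remaining log2 fold changes below 0 were -0.0083 for mRpS26, -0.028 for mRpS18B, -0.032 for mRpS18A, -0.068 for mRpL48, -0.074 for mRpS28 and -0.099 for mRpL10, all within their standard errors.

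mRpS18A, mRpS18B and mRpS18C are paralogs of a single bacterial protein, S18. In mammals the product of the C gene takes the place of bacterial S18, that of B sits elsewhere in the small subunit, and that of A is part of the large subunit. mRpS18A was at 23.0 and 22.7 CPM in the mutant libraries, against 21.8 CPM in Canton S and 27.4 CPM in RAL-208. mRpS18B was at 15.9 and 16.1 CPM in the mutant, against 15.8 CPM in Canton S and 18.7 CPM in RAL-208. mRpS18C was at 10.9 and 12.0 CPM in the mutant, against 12.0 CPM in Canton S and 8.98 CPM in RAL-208. The mutant libraries lay within, or at the edge of, the range of the wild types for all 3 paralogs. Per kb of exon, mean levels over both genotypes were 40.8 CPM for mRpS18A, 19.3 CPM for mRpS18B and 20.8 CPM for mRpS18C.

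Other members with a known role of their own differed by less than their standard error or little more. mRpS29 (FBgn0034727), whose human counterpart DAP3 binds GTP and was first described in cell death, was at 35.95 and 36.2 CPM in the mutant libraries, against 34.3 CPM in Canton S and 34.1 CPM in RAL-208. Libraries of the same genotype agreed closely, and the log2 fold change was 0.15 (SE 0.15). mRpS30 (FBgn0030692), whose mammalian product was located in the large subunit in spite of its name, was the most abundant member by CPM, at 78.2 and 78.9 CPM in the mutant, against 79.7 CPM in Canton S and 73.4 CPM in RAL-208. The groups overlapped, with a log2 fold change of 0.11 (SE 0.12), 0.18 without Canton S and 0.047 without RAL-208. mRpL55 (FBgn0038678), which corresponds to bacterial L31, was at 14.3 and 13.98 CPM in the mutant, against 10.6 in Canton S and 13.1 in RAL-208. Its log2 fold change was 0.32 (SE 0.29), 0.18 without Canton S and 0.48 without RAL-208.

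The median log2 fold change was 0.19 over the 45 tested mRpL genes, 42 of them above 0, and 0.22 over the 24 mRpS genes, 19 of them above 0, where subunits are split by symbol alone. Summed levels of mRpL genes were 1149 and 1144 CPM in the mutant libraries, against 1036 CPM in Canton S and 1048 CPM in RAL-208. Those of mRpS genes were 657 and 652 CPM in the mutant, against 599.8 CPM in Canton S and 602 CPM in RAL-208. The 45 genes with a bacterial counterpart and the 24 tested genes without one had medians of 0.20 and 0.19. In the first class 39 were above 0, and in the second 22. Neither the difference between the subunits nor that between these classes was tested.

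Levels per length were compared with CPM per kb of summed exon length, taken from the BDGP6 annotation. The median of the family was 27.8 CPM per kb, against 17.1 over all genes tested with a known length, 63.5 over nuclear genes of oxidative phosphorylation and 1548 over cytoplasmic ribosomal protein genes. The highest levels were those of mRpL30 with 61.8 CPM per kb, mRpL33 with 60.8, mRpL12 with 52.7, mRpS7 with 51.0 and mRpL20 with 49.1. The lowest were mRpS24 with 8.50 CPM per kb, mRpL21 with 12.5, mRpL35 and mRpL40 with 16.3 each, and mRpS14 with 16.9. From lowest to highest the levels spanned 7.27-fold. mRpL33 was at 24 and 21.6 CPM in the mutant libraries, against 17.7 CPM in Canton S and 21.5 CPM in RAL-208, and the second mutant library barely exceeded RAL-208. mRpL30 was at 43.7 and 42.4 CPM in the mutant, against 41.2 CPM in Canton S and 44.8 CPM in RAL-208, with overlapping groups. The order of the 69 genes by CPM was nearly the same in mutant and wild type (Spearman's rho 0.967 across genes, which are not independent replicates and share their length and the libraries).

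mRpL53 (FBgn0050481) had 0 reads in every library, which allows up to 0.266 and 0.111 CPM in the mutant libraries, 0.248 CPM in Canton S and 0.254 CPM in RAL-208. In the BDGP6 annotation 100% of its exon bases are shared with exons of CG33155 on the same strand and of AGO1 on the opposite strand. The counter set aside 1.35% to 1.44% of the reads of each library as ambiguous, and its mode and strand setting are not known here. Reads on shared bases can therefore be missing from the count, and a count of 0 does not show that the transcript was absent.

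Members of the family lie close to other genes. Exons of another gene share bases with 41 of the 69 tested members, or 59.4%. Over all genes tested with a known length, they do so for 3284 of 8368. A protein-coding gene that starts within 500 bases and is transcribed in the opposite direction was annotated for 2725 of those 8368 genes. Of the 69 members, 51 have such a neighbour, or 73.9%. Among these neighbours are other genes of the mitochondrion, ATPsynD beside mRpL55 and Mitofilin beside mRpL35. mRpL33 starts beside norpA, the phospholipase C gene of phototransduction, and mRpS7 beside the mitotic kinase gene Cdk1. The 28 members without exon overlap had a median log2 fold change of 0.25, with 23 above 0. For the 41 members with overlap the median was 0.19, with 38 above 0. Over all genes tested the medians were -0.011 without overlap and 0.026 with it. The difference between members with and without overlap was not tested.

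Short genes as a whole were higher in the mutant, and these genes are short. The median summed exon length was 0.783 kb in the family and 2.17 kb over the 8368 genes tested with a known length. Among genes under 0.75 kb, the median log2 fold change was 0.24 over 32 members and 0.21 over all 578 genes of that length. From 0.75 to 1 kb it was 0.16 over 17 members and 0.17 over all 585 genes. From 1 to 1.5 kb it was 0.18 over 18 members, 18 of them above 0, and 0.09 over all 1354 genes, of which 60.9% were above 0. Values above 0 were found for 29 of the 32 members under 0.75 kb, or 90.6%, against 68.0% of all genes of that length. Under 1 kb the shares above 0 were 83.7% of 49 members and 68.4% of all genes. Both mutant libraries lay above both wild types for 51.0% of the 49 members under 1 kb and for 43.0% of all 1163 genes under 1 kb. Below 1 kb the medians of the family and of all genes were close, while the share above 0 was higher in the family, and neither that difference nor the part of length in the shift was tested. Across the 69 members Spearman's rho between exon length and log2 fold change was -0.16, and across all genes -0.25.

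**Figure D3:**
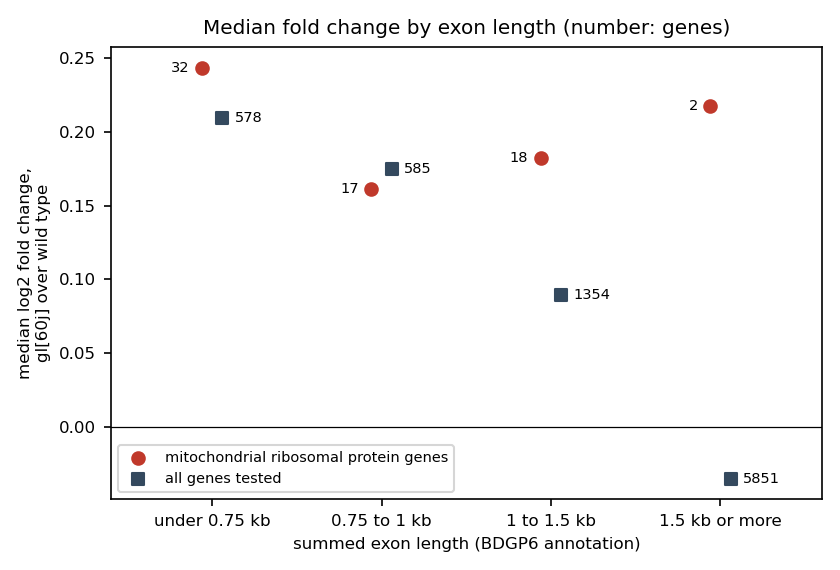
Median fitted log2 fold change, gl[60j] over wild type, by summed exon length, circles for the family and squares for all genes tested, with the number of genes beside each point. Under 1 kb both medians are close, at 0.24 and 0.16 in the family and 0.21 and 0.17 over all genes, and the longest class holds 2 members.

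Between the wild-type strains, compared without replicates, the family did not lean to 1 side. The median ratio of CPM, Canton S over RAL-208, was 0.997 over the 69 genes, 34 of which were higher in Canton S. Over all genes tested the median was 0.992. For 60 members the ratio lay between 0.8 and 1.25. The highest ratios were those of mRpL14 (23.0 CPM in Canton S and 16.5 in RAL-208, a ratio of 1.39), mRpS18C (1.33), mRpL28 (1.27) and mRpS17 (1.26). The lowest were mRpS14 (0.655), mRpL20 (0.686), mRpL24 (24.3 CPM in Canton S and 31.7 in RAL-208, 0.768) and mRpL41 (0.776). The SD of the log2 ratio between strains was 0.22 over the members and 0.69 over all genes. Between genotypes the SD of the fitted log2 fold change was 0.20 over the members. That value is TMM-scaled and rests on summed mutant libraries, so it is not a like measure to the CPM ratio of single libraries. The technical replicates of the mutant differed at a binomial p under 0.05 for 5 of the 69 members, or 7.25%, against 13.2% of all genes. One of them was mRpL14, at 16.4 and 20.9 CPM in the mutant libraries. Such a share rises with read number, and the median level was 23.0 CPM in the family and 35.8 over all genes.

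The symbol rule leaves out tko and bonsai, which also encode proteins of the mitochondrial small subunit. tko, the gene of the decoding site protein S12, whose mutants are known for seizures on mechanical shock, was at 30.9 and 32.2 CPM in the mutant libraries, against 24.3 CPM in Canton S and 21.2 CPM in RAL-208. Both mutant libraries were above both wild types, with a log2 fold change of 0.56 (SE 0.20). Its adjusted p (edgeR) was 0.318 when the mutant libraries were summed and 0.0437 in the fit of 4 libraries. bonsai, the gene of the S15 protein, was at 35.3 and 37.1 CPM in the mutant, against 34.2 CPM in Canton S and 35.3 CPM in RAL-208. The first mutant library and RAL-208 had the same value to 3 digits. Of the ribosomal RNAs, mt:lrRNA was at 116 and 119 CPM in the mutant, against 41.3 CPM in Canton S and 147 CPM in RAL-208, so that the wild types differed from each other more than from the mutant, and mt:srRNA had 0 reads in every library.

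Other genes of mitochondrial gene expression did not share a direction, and in each list 0 genes passed the test when the mutant libraries were summed. Of the 8 tested translation factor genes, 6 were above 0, with a median of 0.16. mEFTs, the exchange factor of elongation factor Tu, was at 74.6 and 82.4 CPM in the mutant libraries, against 65.7 CPM in Canton S and 60.4 CPM in RAL-208 (log2 fold change 0.42, SE 0.12). mEFTu1, for elongation factor Tu itself and the most abundant of the list, was at 127 and 126 CPM in the mutant, against 122 CPM in Canton S and 116 CPM in RAL-208. The 15 mitochondrial tRNA synthetase genes stood on the other side, with a median of -0.12 and 5 above 0. Both mutant libraries lay below both wild types for 11 of them, or 73.3%, where the background is 41.0%. AspRS-m, the most abundant, was at 155 CPM in each mutant library, against 196 CPM in Canton S and 215 CPM in RAL-208 (log2 fold change -0.33, SE 0.12), and was called lower by the fit of 4 libraries with an adjusted p of 0.0373 in edgeR. ValRS-m was at 14.8 and 12.5 CPM in the mutant, against 19.2 CPM in Canton S and 57.9 CPM in RAL-208, where RAL-208 stood apart.

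Genes that maintain mitochondrial DNA and RNA had a median of 0.05 over 15 tested, with 10 above 0. TFAM, the packaging factor of mitochondrial DNA, was at 64.0 and 70.4 CPM in the mutant libraries, against 64.4 CPM in Canton S and 60.5 CPM in RAL-208, with overlapping groups. scu, the most abundant of this list, encodes a dehydrogenase that is also a subunit of the tRNA-trimming enzyme of mitochondria, and was at 146 and 153 CPM in the mutant, against 135 CPM in Canton S and 108 CPM in RAL-208. Of 8 regulators of growth and mitochondrial biogenesis, 3 were above 0 and the median was -0.08. ewg, the fly relative of nuclear respiratory factor 1, was at 132 and 134 CPM in the mutant, against 204 CPM in Canton S and 227 CPM in RAL-208. Its fitted log2 value was -0.62 (SE 0.13), and the adjusted p was 0.218 by edgeR on summed libraries and 0.0315 by DESeq2. ewg is also known from neurons, whose markers summed to less in the mutant, and their part in its level was not tested. srl, the PGC-1 relative of flies, was at 142 and 135 CPM in the mutant, against 174 CPM in Canton S and 182 CPM in RAL-208 (log2 fold change -0.31, SE 0.11), and was called lower by the fit of 4 libraries, with an adjusted p of 0.0339 in edgeR.

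**Figure D4:**
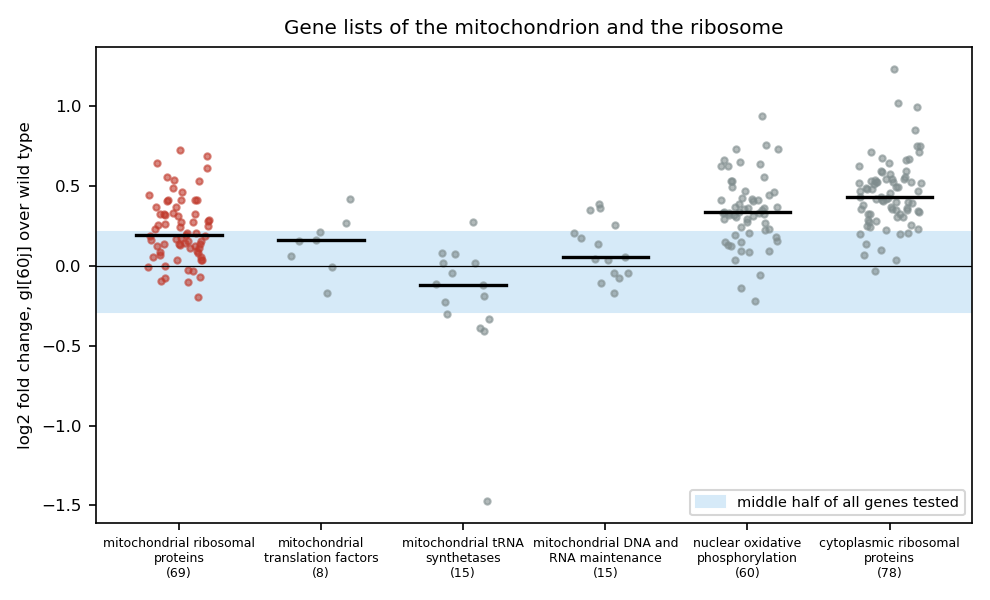
Fitted log2 fold change of each tested gene, gl[60j] over wild type, in the mitochondrial ribosomal protein family and in 5 related lists (numbers in brackets are genes tested, bars are medians, the band is the middle 50% of all genes tested). Medians run from -0.12 for mitochondrial tRNA synthetases to 0.43 for cytoplasmic ribosomal proteins, with 0.20 for the family.

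Over genes of all lengths, the median of the family stood between those of its nearest relatives and that of all genes tested. Cytoplasmic ribosomal protein genes had a median log2 fold change of 0.43 over 78 tested, with 77 above 0, and both mutant libraries lay above both wild types for 67, or 85.9%. Nuclear genes of oxidative phosphorylation, whose products work beside the proteins that mitochondrial ribosomes make, had a median of 0.33 over 60 tested, with 57 above 0, and 47 did not overlap on the higher side, or 78.3%. For the mitochondrial ribosomal family the share was 50.7%, and over all genes tested it was 26.2%. The fit of 4 libraries called 5 of the 69, 34 of the cytoplasmic and 23 of the oxidative phosphorylation genes higher, where the background is 8.05%. DESeq2, with a background of 1.67%, called 0 of the 69, 30 of the cytoplasmic and 2 of the oxidative phosphorylation genes higher. The technical replicates of the mutant differed at a binomial p under 0.05 for 72 of the 78 cytoplasmic genes, or 92.3%. The sums of these genes were 115280 and 126520 CPM in the mutant libraries. More reads make such a test, and the calls above, easier to pass. Median levels were 1347 CPM in the cytoplasmic list, 69.9 in oxidative phosphorylation, 23.0 in the family and 35.8 over all genes. These shares and calls are therefore not directly comparable between lists. Exons summed to under 1 kb in 49 of the 69 members, 46 of the 78 cytoplasmic and 39 of the 60 oxidative phosphorylation genes. Among these, the median log2 fold changes were 0.23, 0.50 and 0.41, against 0.19 over all 1163 genes under 1 kb. Both mutant libraries lay above both wild types for 51.0%, 89.1% and 79.5% of them, against 43.0% of all genes under 1 kb. The differences between these lists, and the part of length in them, were not tested.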

How the data were processed

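The authors deposited 1 table of raw read counts per FlyBase gene for each library, without normalization. The submitters' processing notes list CASAVA 1.8, TopHat2 2.0, HTSeq and build dm3, and how reads were counted, on which strand and against which annotation is not stated. Reads of overlapping or antisense genes therefore cannot be told apart with certainty. Gene reads made up 74.4% to 76.7% of each table, and the counter's summary lines (no gene, ambiguous, not unique) were left out. Of 14885 identifiers, 13746 had a symbol in the reference table. Symbols, exon lengths and neighbours came from the BDGP6 annotation, which is not dm3, so no coordinates are given.

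Counts were analysed with edgeR 4.0.16 in R 4.3.3 (TMM, filterByExpr on the 4 libraries at a minimum count of 10, quasi-likelihood F test, Benjamini-Hochberg at 0.05 over 9059 genes), with the mutant libraries summed to 1 sample. The spread of the mutant, a single sample in this fit, is taken to equal that of the wild types. Standard errors are the log2 fold change divided by the root of F. The common dispersion was 0.0627 (coefficient of variation 25.0%). DESeq2 1.42.0, limma-voom (limma 3.58.1) and a fit of 4 separate libraries were alternatives. CPM are without TMM unless stated. The script was checked on simulated data, in which genes were changed by larger folds than any fitted for the family. That check covered fitted fold changes and not calls or p-values. P-values measure the spread between these samples only, and limits for a count of 0 (3 reads) and binomial tests cover counting error only. The members and lists were chosen with earlier results of these data known, so lists have no test of their own. Levels per kb use summed exon length, since protein lengths were not at hand. The length classes were set after seeing the data.

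Genes named are the 8 largest and 8 smallest fitted changes, the 5 highest and 5 lowest levels per kb, the most and least abundant members, members with a role of their own, the 4 largest strain ratios in each direction, and from other lists a few of the smallest p-values and the most abundant gene. mRpS9 and mRpS10, called by the fit of 4 libraries, and the neighbour pairs were named after their values were seen.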

Additional observations from a re-analysis of the deposited data

How the results depend on the processing

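The median log2 fold change of the 69 genes stayed above 0 under each setting run: 0.19 with DESeq2 size factors, 0.12 with total gene reads (where the median of all genes was -0.073), 0.25 without a filter, 0.21 with the filter on 3 columns and 0.25 without members that overlap other exons (the last 2 chosen after seeing the data), and between 0.186 and 0.217 without 1 library. Genes above 0 numbered 61 in the main fit, and under the other settings they ran from 54 with total gene reads to 64 without a filter. Calls with summed libraries were 0 under other scalings, filters, DESeq2 and limma-voom. Over all genes tested, the fit of 4 libraries called 8.05% higher and 11.3% lower. The fit of 4 libraries called 5 higher, and fits without 1 library called from 0 to 28 higher and from 0 to 2 lower. With 4 libraries these were 28 higher and 2 lower without Canton S (all genes 29.5% and 29.6%) and 24 higher and 0 lower without RAL-208 (all genes 23.3% and 24.2%), with only technical replicates behind the spread. With TMM-scaled CPM, 47 genes did not overlap on the higher side (34.6% of all genes). Non-overlapping genes on the lower side numbered 2 with that scaling (33.5% of all genes). Without 1 library they ran from 6 to 13 (44.1% to 52.6% of all genes), and on the higher side from 41 to 49 (29.4% to 39.2%), since fewer libraries overlap less. Among 29 named members, values near 0 changed sign. With total gene reads mRpL14 was at -0.018, mRpL24 at -0.042 and mRpL30 at -0.0084, and mRpL14 was at -0.013 with 4 libraries. Without a filter mRpS18A was at 0.022, mRpS18B at 0.027 and mRpS26 at 0.046 (0.0088 with the filter on 3 columns). Without 1 library the values ran from -0.22 to 0.32 for mRpL14, -0.44 to 0.094 for mRpL20, -0.14 to 0.23 for mRpL24, -0.031 to 0.33 for mRpL28, -0.045 to 0.31 for mRpL41, -0.18 to 0.13 for mRpS18A, -0.14 to 0.094 for mRpS18B, -0.041 to 0.0059 for mRpS26, -0.13 to 0.056 for mRpS28 and -0.19 to 0.0069 for mRpS7. With 4 libraries less 1 wild type they ran from -0.19 to 0.30 for mRpL14, -0.45 to 0.087 for mRpL20, -0.14 to 0.23 for mRpL24, -0.025 to 0.33 for mRpL28, -0.045 to 0.31 for mRpL41, -0.19 to 0.13 for mRpS18A, -0.15 to 0.093 for mRpS18B and -0.19 to 0.011 for mRpS7. The cause was not tested. No paired analysis was possible, because both mutant libraries stand for 1 biological sample and the wild types come from different strains. The mutant is 1 biological sample, which limits what any of these fits can show.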
